A study of Mus musculus with 72 samples.

Results

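Interferon response genes are the genes that cells switch on when interferons bind their receptors. The 35 genes described here were taken as a list of known mouse interferon targets, and their probe sets were found on the array through the platform's gene symbols. Of the 35, 33 had at least 1 probe set that names a single gene, 51 probe sets in all, out of 45101 probe sets and 18193 so named genes on the array. Isg15, the ubiquitin-like modifier that is conjugated to proteins, was represented only by 1 probe set that also names another gene, and Ifi44, a cytoplasmic antiviral protein, matched no probe set by symbol. Neither is given a value.

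The study asked how dietary coenzyme Q10, the lipid that carries electrons in the mitochondrial inner membrane and acts as an antioxidant, changes gene expression in ageing tissue. All animals were female SAMP1 mice, an inbred senescence accelerated strain, kept specific pathogen-free, with no other allele or agent named in the labels. From 4 weeks of age they received the reduced form of coenzyme Q10 (QH2), its oxidised form (Q10), each at 500 mg per kg body weight per day, or a control diet, for 6 or 14 months. They were 7 or 15 months old when killed. Liver, kidney, heart and brain were each measured on 18 arrays, which gave 24 groups (QH2, Q10 and control at either duration in each tissue) of 3 arrays. Each array is taken as 1 mouse, since the design has 3 mice killed per group. The mice lived 3 to 6 to a cage with the grouping unchanged, so that cage and diet cannot be told apart where a cage held 1 diet. Time on the diet and age coincide. Whether a mouse gave more than 1 of the 4 tissues is not in the labels.

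Type I and type III interferons signal through receptor-bound Janus kinases to a complex that contains STAT2 and IRF9 and binds the interferon-stimulated response element in promoters. Type II interferon, made by T cells and NK cells, acts through gamma-activated sites in promoters and raises IRF1. The targets include transcription factors that carry the response forward, effectors that block viral replication, sensors of viral nucleic acid, and large GTPases that attack the vacuoles of intracellular microbes. In liver, hepatocytes and the resident macrophages, the Kupffer cells, both respond to interferon.

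The promoters show what many of these genes share. The RefSeq promoter table (build GRCm38.p6, 250 bases before to 50 bases after each start) held 27 of the 35 genes. The core of the interferon-stimulated response element, searched as GAAANNGAAA on both strands (TTTCNNTTTC on the printed strand is the same motif), was present in 18 of the 27 (66.7%) and in 1079 of 27025 genes of the table (3.99%). The core of the gamma-activated site, TTCNNNGAA, was present in 9 of the 27 (33.3%) and in 2582 of all genes (9.55%). The 120 bases nearest the start with the motif are printed, 5′ to 3′ on the gene's strand, for the 6 genes of smallest p in liver on Q10 at 14 months that hold it and could be shown. Capitals mark the motif, and in Gbp3 and Oas1a a pair of overlapping matches.
Gbp7, chr3:142530216-142530335, plus strand: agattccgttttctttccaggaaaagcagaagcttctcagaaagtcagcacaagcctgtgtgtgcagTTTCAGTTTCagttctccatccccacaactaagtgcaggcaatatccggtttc
Igtp, chr11:58199436-58199555, plus strand: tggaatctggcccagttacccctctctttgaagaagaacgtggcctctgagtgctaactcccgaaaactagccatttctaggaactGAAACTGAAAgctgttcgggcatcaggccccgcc
Gbp2, chr3:142620543-142620662, plus strand: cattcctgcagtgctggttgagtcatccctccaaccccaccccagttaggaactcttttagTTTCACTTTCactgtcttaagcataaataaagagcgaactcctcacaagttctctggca
Irgm2, chr11:58214857-58214976, plus strand: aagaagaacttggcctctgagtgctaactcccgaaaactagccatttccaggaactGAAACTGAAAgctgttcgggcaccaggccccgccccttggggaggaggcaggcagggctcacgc
Gbp3, chr3:142559924-142560043, plus strand: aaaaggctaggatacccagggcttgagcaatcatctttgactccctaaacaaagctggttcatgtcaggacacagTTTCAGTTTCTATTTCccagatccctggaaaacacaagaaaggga
Oas1a, chr5:120907526-120907645, minus strand: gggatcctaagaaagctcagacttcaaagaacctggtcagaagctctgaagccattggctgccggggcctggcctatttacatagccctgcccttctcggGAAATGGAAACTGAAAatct
The motif began 53 bases before the start in Gbp7, 34 in Igtp, 59 in Gbp2, 64 in Irgm2, 45 in Gbp3 and 20 in Oas1a. Igtp and Irgm2 lie next to each other on chromosome 11, as do Gbp7 and Gbp3 on chromosome 3, with 1 protein-coding gene between Gbp3 and Gbp2. Ifit2 and Ifit3 on chromosome 19, and Oasl2 and Oasl1 on chromosome 5, are also direct neighbours. A match is a description of these letters and says nothing of binding.

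The values are the signal of each probe set, quantile normalised over the 18 arrays of a tissue, and changes are on the scale of log2(signal + 1). Before normalisation the mean signal of an array lay between 85.8 and 174.2 for liver and between 109.4 and 281.5 for the other tissues. Defining markers were read against the tissue labels: the lowest array of the tissue lay above every array of the others for 6 of 7 liver, 6 of 6 kidney, 7 of 7 heart and 7 of 7 brain markers. In each tissue 27022 probe sets were tested, which included 33 of the interferon response genes in liver, 30 in kidney (without Mx1, Mx2 and Ddx60), 31 in heart (without Mx1 and Mx2) and 27 in brain (without these 3, Usp18, Oasl1 and Zbp1). A gene is called where the limma p, adjusted over all 27022 probe sets, is under 0.05. Exact permutation of 3 against 3 arrays cannot give a p under 0.1, so single genes rest on the limma fit. In bulk tissue fewer cells of a type and less RNA per cell cannot be told apart.

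**Figure D1:**
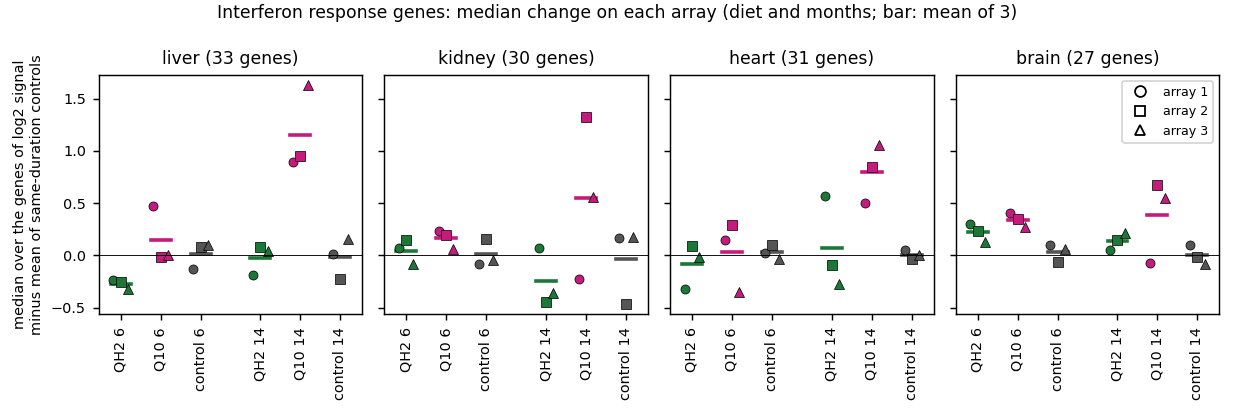
Median over the interferon response genes of the log2 signal on each array minus the mean of the control arrays of the same duration. Columns are diet and months, circles, squares and triangles are arrays 1, 2 and 3, and bars are the mean of 3. In liver at 14 months the 3 Q10 arrays stand at 0.89, 0.95 and 1.63, above all QH2 and control arrays.

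In liver after 14 months, interferon response genes were higher in Q10 mice than in control mice: 22 of the 33 tested rose and 0 fell. Over all probe sets 1673 of 27022 were called (6.19%), and 1049 of them were higher (3.88%). Higher ones made up 62.7% of the calls, against 76.8% with median scaling and 97.6% on the values as deposited, where all probe sets shifted by 0.33. The median change was 1.04 over the 33 genes and -0.10 over all probe sets. For 25 of the 33 every Q10 array lay above every control array, which held for 10.2% of all probe sets. The median over the 33 genes was 0.89, 0.95 and 1.63 above the control mean on Q10 arrays 1, 2 and 3. On control arrays 1, 2 and 3 it was 0.02, -0.23 and 0.16. Of the 22 genes, 12 stayed under the threshold whichever array of both groups was left out: Gbp7, Igtp, Gbp6, Iigp1, Gbp2, Irgm2, Gbp3, Oas1a, Trim30a, Ifit2, Irf8 and Rtp4.

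The calls in liver rest on a spread that the fit shares over all 6 groups. The SE of a change comes from this shared spread, not from the compared groups alone. On the Q10 arrays the SD of the log2 signal was 0.998 for Gbp2, 1.09 for Irf8 and 0.743 for Gbp7. On the control arrays it was 0.596, 0.435 and 0.135. Of the 33 genes, only Bst2, Xaf1 and Zbp1 had the lower SD on the Q10 arrays. Without control array 2 the fit called 14 genes, without Q10 array 3 it called 12, and with only the arrays of the compared diets it called 0 genes and 0 probe sets of any kind. The median change in that fit was also 1.04. The ratio of the 3′ to the 5′ probe sets of Actb, a measure of RNA integrity and labelling that rises as transcripts shorten, ran from 1.586 to 3.045 on the Q10 arrays and from 3.492 to 4.113 on the control arrays. With this ratio as a covariate 0 genes and 0 probe sets were called, with a median of 1.10 over the 33 genes.

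The interferon-inducible GTPases were the class with the most calls, 8 of 8 tested, with a median change of 2.17. Gbp7, a guanylate-binding protein that helps kill microbes inside cells, had signals of 387.2, 576.1 and 1077.6 on the Q10 arrays and 151.8, 142.7 and 171.8 on the control arrays. The groups did not overlap, and Q10 array 3 was the highest. The change was 2.00 ± 0.25 (SE), a 3.99-fold rise, with adjusted p = 0.000331. Igtp, an immunity-related GTPase also called Irgm3, had 822.2, 1168.5 and 2155.6 on the Q10 arrays and 308.2, 195.0 and 263.6 on the control arrays. All Q10 arrays were again higher, the third most of all. Igtp rose 5.06-fold (log2 2.34 ± 0.31, adjusted p = 0.000445). Gbp6 had 382.9, 327.6 and 615.2 on the Q10 arrays and 82.4, 56.4 and 96.1 on the control arrays, a 5.51-fold rise (log2 2.46 ± 0.34, adjusted p = 0.000525). Its lowest Q10 array stood far above its highest control array.

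The other GTPases moved the same way. Gbp2 had the largest change of the 33 genes, 2.98 ± 0.42 or 7.89-fold (adjusted p = 0.000571). Its Q10 arrays differed among themselves, at 151.5, 549.4 and 452.1, against 58.6, 25.9 and 47.3 on the control arrays. Gbp3 rose 4.85-fold and Irgm2 4.20-fold (adjusted p = 0.00104 for both). Iigp1 (Irga6), which breaks the vacuoles of intracellular parasites, rose 2.66-fold with adjusted p = 0.000536. Irgm1, a regulator that keeps the effector GTPases off the cell's own membranes, rose 2.30-fold with adjusted p = 0.0168.

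Of the 5 transcription factors tested, 4 rose. Irf8, a factor of macrophages, dendritic cells and B cells, had 103.1, 456.1 and 286.6 on the Q10 arrays and 55.7, 42.5 and 78.4 on the control arrays. Array 1 of Q10 came nearest to the controls, without overlap. Irf8 rose 4.12-fold (log2 2.04 ± 0.38, adjusted p = 0.0038). Irf7, which amplifies type I interferon production, had 226.9, 137.1 and 281.3 on the Q10 arrays against 97.4, 90.2 and 113.2 on the control arrays, a 2.05-fold rise (adjusted p = 0.0127). Irf1, the mediator of the type II response, had 257.6, 384.2 and 452.1 against 193.4, 170.4 and 203.8, a 1.88-fold rise (adjusted p = 0.0159). Neither gene's groups overlapped. Irf9, the DNA-binding subunit of the type I complex, rose 1.63-fold (adjusted p = 0.0469), close to the threshold. Stat2, its partner, did not pass, at -0.10 ± 0.28 (adjusted p = 0.886).

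Usp18, the protease that removes ISG15 from proteins and damps the type I receptor, had 52.8, 54.4 and 88.8 on the Q10 arrays and 31.4, 23.9 and 40.8 on the control arrays. The arrays did not overlap, and the rise was 1.99-fold (adjusted p = 0.0165).

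Among the antiviral effectors 5 of 11 tested rose. Oas1a, which makes the 2-5 linked oligoadenylates that activate RNase L, had 148.3, 192.6 and 292.7 on the Q10 arrays and 64.6, 66.2 and 67.5 on the control arrays. Its control arrays were close together and its Q10 arrays all stood clear of them. The rise was 3.04-fold (log2 1.60 ± 0.25, adjusted p = 0.00109). Ifit2, which binds viral RNA, had 32.4, 89.0 and 83.8 on the Q10 arrays and 13.4, 7.9 and 12.2 on the control arrays. It was dim, and rose 5.31-fold (log2 2.41 ± 0.42, adjusted p = 0.00256). Oasl2 had 37.9, 58.6 and 80.0 against 17.4, 19.8 and 14.7, a 3.15-fold rise (adjusted p = 0.00662). The remaining calls were Rsad2 (viperin, which makes a chain-terminating nucleotide; 2.04-fold, adjusted p = 0.0244) and Bst2 (tetherin, which holds budding virus at the cell surface; 1.51-fold, adjusted p = 0.0438).

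The other 6 effectors did not pass. Ifit3, at 0.92 ± 0.29 with adjusted p = 0.0621, had 105.1, 79.5 and 191.1 on the Q10 arrays and 70.2, 46.9 and 69.8 on the control arrays, without overlap. Ifit1, which recognises RNA lacking the host cap, stood at 0.52 ± 0.33 (adjusted p = 0.379). Mx1 and Mx2, dynamin-like GTPases that trap viral particles, were dim, with 11.9, 11.5 and 22.3 for Mx1 on the Q10 arrays and 9.2, 11.8 and 8.3 on the control arrays. Oasl1, which in mouse holds back Irf7 translation, had a change of -0.39 ± 0.28 (adjusted p = 0.463). Eif2ak2, the kinase PKR that stops translation on double-stranded RNA, had a change of -0.37 ± 0.18 (adjusted p = 0.243). It was the only gene of the 33 with every Q10 array below every control array: 59.9, 49.4 and 61.8 against 72.9, 67.0 and 81.0.

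Of the 4 sensors and helicases 1 rose. Zbp1, which senses Z-form nucleic acid and starts necroptosis, had 76.9, 38.9 and 75.6 on the Q10 arrays and 24.2, 11.5 and 12.6 on the control arrays. Its lowest Q10 array lay above its highest control array, and it rose 3.82-fold (adjusted p = 0.0112). Ddx58 (RIG-I) at 0.69 ± 0.23, Ifih1 (MDA5) at 0.34 ± 0.15 and Ddx60 at 0.21 ± 0.40 did not pass (adjusted p = 0.0848, 0.206 and 0.825). RIG-I and MDA5 detect viral RNA in the cytosol.

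In the last class 3 of 4 rose. Trim30a, an inhibitor of Toll-like receptor signalling in mouse, had 137.8, 363.4 and 498.0 on the Q10 arrays and 61.9, 43.0 and 68.6 on the control arrays. Array 1 of Q10 was the lowest of its group and still above the controls. Trim30a rose 5.08-fold (log2 2.35 ± 0.40, adjusted p = 0.0022). Rtp4, a chaperone of G protein-coupled receptors that also restrains viral replication, had 235.2, 161.9 and 477.6 against 96.7, 110.3 and 101.6, a 2.55-fold rise (adjusted p = 0.00815). Parp14, a mono-ADP-ribosyltransferase, had 107.7, 209.8 and 213.5 against 90.0, 73.3 and 75.4, a 2.12-fold rise (adjusted p = 0.00815). Xaf1, an antagonist of the apoptosis inhibitor XIAP, stood at 0.49 ± 0.18 (adjusted p = 0.124).

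**Figure D2:**
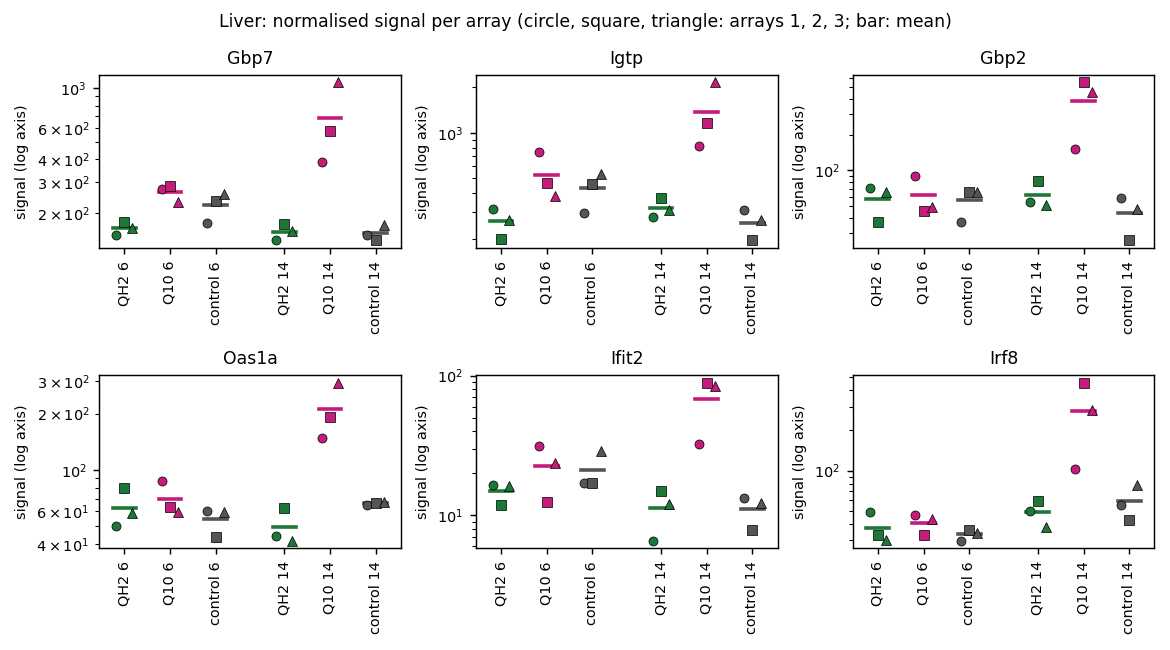
Normalised liver signal (log axis) of Gbp7, Igtp, Gbp2, Oas1a, Ifit2 and Irf8 on each array, with columns for diet and months and bars for the mean of 3. In each of the 6 genes the Q10 arrays at 14 months stand above all QH2 and control arrays of that age, and at 6 months the diets lie closer together.

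Markers of immune cells moved with these genes in the same arrays. All 15 macrophage and Kupffer cell markers were higher in Q10 livers at 14 months, with a median change of 2.97, and their summed signal ran from 7453 to 24180 on the Q10 arrays and from 1201 to 2782 on the control arrays. Of 7 tested B cell markers 6 were higher, with summed signals of 350.2 to 3771 and 118.9 to 190.2. Of 7 tested neutrophil markers 6 were higher (Ly6g was not tested), with summed signals of 322.2 to 14900 on the Q10 arrays and 93.26 to 669.6 on the control arrays. T cell markers had 2 of 5 higher and NK cell markers 2 of 5, whereas 0 of 7 hepatocyte markers were called, with sums of 62390 to 67200 and 67710 to 68320. Q10 array 1 had the lowest sum of its group in each of these 5 immune lists. Endothelial markers were read as well: Pecam1 (2.21, adjusted p = 0.0254) and Cdh5 (1.49, adjusted p = 0.0069) were higher, and no other was called. Of the plasmacytoid dendritic cell markers outside the 33 genes, only Spib was called (4.09, adjusted p = 0.0109). With Q10 arrays 2 and 3 left out, a setting added after the values were seen, the fit called 2 of the 33 genes and the median change was 0.89. The part of these cells in the change of the interferon response genes was not tested.

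The rest of the interferon pathway was read in the same comparison. Ligands could be read for 2 of 18 genes: Ifna1 at -1.81 ± 0.77 and Ifna2 at -0.85 ± 0.52 did not pass (adjusted p = 0.172 and 0.375). Of 9 receptors and kinases 3 were higher: Il10rb, a subunit of the type III receptor (1.66, adjusted p = 0.00124), Ifngr1, which binds type II interferon (1.10, adjusted p = 0.0143), and the kinase Jak1 (0.75, adjusted p = 0.0244). Of 14 sensors and adaptors 2 were higher: Myd88, the Toll-like receptor adaptor (0.67, adjusted p = 0.0371), and Sting1, the adaptor of cytosolic DNA sensing (2.46, adjusted p = 0.0467). Of 7 negative regulators 3 were higher: Samhd1, the phosphatases Ptpn1 and Ptpn6 (1.42, 1.59 and 1.94). Of 45 other interferon targets 18 were higher and 0 lower, with a median of 0.91. The 4 of smallest p were the immunoproteasome subunits Psmb8 (2.09) and Psmb9 (2.10), the membrane protein Ifitm1 (1.42), which blocks viral entry, and the chemokine Ccl5 (5.01), with adjusted p between 0.000331 and 0.000514.

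**Figure D3:**
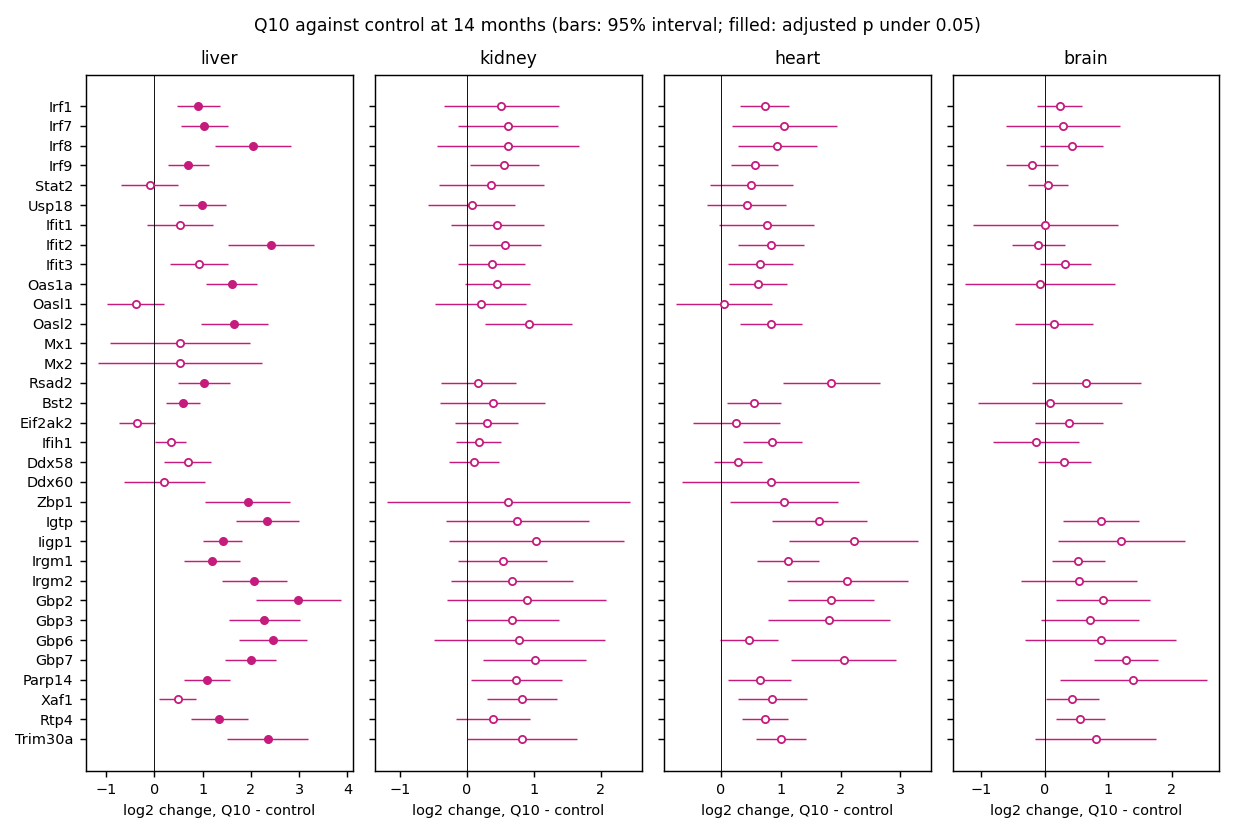
Change of each interferon response gene on Q10 against control at 14 months in 4 tissues, as log2 with 95% intervals. Filled points passed the test: 22 of 33 in liver and 0 in the other tissues, where nearly all points lie right of 0.

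In liver at 14 months 22 of the 33 genes were lower on QH2 than on Q10 and 0 higher. This comparison shares its Q10 arrays with the one against control and is no independent evidence. Over all probe sets there were 2646 calls (9.79%), 1341 of them lower (4.96%). Higher ones made up 49.3% of these calls, 67.6% with median scaling and 3.57% as deposited, where all probe sets shifted by -0.39. For 24 genes every QH2 array lay below every Q10 array, as for 11.1% of all probe sets. The median change was -1.13 over the 33 genes and 0.08 over all probe sets. Of the 22 genes 17 stayed called whichever array was left out. With only the arrays of the compared diets, or with the Actb ratio as a covariate, 0 were called. Without Q10 arrays 2 and 3 the fit called 2.

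Trim30a showed the largest fall, with 21.6, 65.9 and 26.9 on the QH2 arrays and 137.8, 363.4 and 498.0 on the Q10 arrays, 8.42-fold lower (log2 -3.07 ± 0.40, adjusted p = 0.000319). Oas1a had 44.0, 62.2 and 41.8 on the QH2 arrays against 148.3, 192.6 and 292.7 on the Q10 arrays, 4.11-fold lower (adjusted p = 0.000319). Gbp7 had 141.4, 173.3 and 159.4 on the QH2 arrays, 3.93-fold lower (adjusted p = 0.000319). In none of the 3 genes did the groups overlap. All 8 GTPases were lower, with a median of -1.99, as were Irf8, Irf1, Irf7 and Irf9, Usp18, Ifit2, Oasl2 and Rsad2, and Parp14, Xaf1 and Rtp4. Ddx58 was called here, 1.78-fold lower (adjusted p = 0.0296), while Zbp1 (-1.28, adjusted p = 0.0618) and Bst2 (-0.24, adjusted p = 0.434) were not. The other tested probe sets of Ddx58 were not called, at -0.54 (adjusted p = 0.477) and -1.59 (adjusted p = 0.165). The Actb ratio on the QH2 arrays ran from 3.666 to 7.363, above every Q10 array, and the macrophage sum from 1660 to 2750.

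QH2 and control livers at 14 months differed in 0 of the 33 genes and in 0 probe sets of any kind (0.0%) by limma. At an unadjusted p under 0.05 stood 3 of the 33 genes (9.09%) and 1673 of 27022 probe sets (6.19%). Gbp7 had 141.4, 173.3 and 159.4 on the QH2 arrays and 151.8, 142.7 and 171.8 on the control arrays, which overlap, and its change of 0.02 had a 95% interval of -0.50 to 0.55. Iigp1 had 1971.9, 2118.8 and 1945.8 on the QH2 arrays and 2057.7, 1732.6 and 2367.3 on the control arrays, with an interval of -0.43 to 0.39. Igtp had an interval of -0.32 to 0.98 and Oas1a one of -0.96 to 0.09. The genes of smallest p were Ifih1 (0.42), Eif2ak2 (-0.42), Bst2 (0.36) and Xaf1 (-0.34), with adjusted p from 0.69 to 0.84.

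After 6 months no interferon response gene passed in liver in any pair of diets. Over all probe sets 219 were called on Q10 against control (0.81%), 0 on QH2 against control (0.0%) and 267 on QH2 against Q10 (0.988%). At an unadjusted p under 0.05 stood 0, 4 and 9 of the 33 genes (0.0%, 12.1% and 27.3%) in these comparisons, against 9.26%, 7.07% and 10.6% of all probe sets. On Q10 against control the smallest p belonged to Irgm2 (0.58), Irf9 (0.34), Oas1a (0.34) and Ddx60 (0.54), with adjusted p from 0.643 to 0.793. On QH2 against control they were Usp18 (-0.72), Ddx58 (-0.63), Oasl2 (-0.86) and Igtp (-0.71), with adjusted p from 0.502 to 0.674. Gbp7 had 151.9, 180.0 and 164.9 on QH2, 273.5, 285.4 and 232.7 on Q10, and 175.6, 232.9 and 256.8 on control diet. The QH2 arrays lay below all Q10 arrays, and the Q10 and control arrays overlapped. On QH2 against Q10 the smallest p values belonged to Ddx58 (-0.82), Igtp (-0.99), Ddx60 (-1.16) and Gbp7 (-0.67), with adjusted p from 0.11 to 0.285. For 13 of the 33 genes every QH2 array lay below every Q10 array (8.82% of all probe sets), and for 9 below every control array (5.45%). The median over the 33 genes was -0.24, -0.25 and -0.32 on the 3 QH2 arrays, 0.47, -0.02 and 0.00 on the Q10 arrays, relative to the control mean.

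The Q10 change in liver was larger after 14 months than after 6 months in 9 of the 33 genes, by the test of that difference, against 629 probe sets called (2.33%), 271 of them larger (1.0%). The larger ones were 43.1% of the calls, and 65.5% of those on the values as deposited. The 9 were Gbp7 (a difference of 1.74 ± 0.35), Gbp2 (2.86 ± 0.60), Iigp1 (1.31 ± 0.28), Gbp3 (2.32 ± 0.50), Igtp (2.05 ± 0.44), Gbp6 (2.14 ± 0.48), Oasl2 (1.96 ± 0.47), Trim30a (2.28 ± 0.57) and Ifit2 (2.36 ± 0.60), with adjusted p from 0.0148 to 0.0441. This count moved with single arrays: it was 17 without Q10 array 1 of 14 months, 3 without array 3 of that group, 0 without control array 2 of 14 months, 5 without control array 1 of 14 months, and 1 and 3 without Q10 arrays 2 and 3 of 6 months. No gene stayed called in every such fit. For QH2 the same difference gave 0 genes and 0 probe sets (0.0%), with 2 genes (6.06%) at an unadjusted p under 0.05, near the 6.01% of all probe sets. Its smallest p were those of Ifih1 (0.52), Igtp (1.04), Usp18 (0.61) and Zbp1 (1.05), with adjusted p from 0.787 to 0.869.

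On control diet, 2 of the 33 genes were lower at 14 than at 6 months in liver and 0 higher. Over all probe sets 1988 were called (7.36%) and 501 were lower (1.85%), and the higher share of the calls was 74.8%, or 98.7% as deposited. Usp18 had 31.4, 23.9 and 40.8 at 14 months and 73.9, 81.4 and 59.2 at 6 months, 2.22-fold lower (log2 -1.15 ± 0.23, adjusted p = 0.00386). Bst2 had 310.8, 233.8 and 335.6 at 14 months and 496.9, 382.0 and 454.8 at 6 months, 1.52-fold lower (adjusted p = 0.0346). Neither gene's groups overlapped. Of the 33 genes, 12 lay wholly lower at 14 months (14.9% of all probe sets). Irf8, Stat2, Oas1a and Eif2ak2, 4 genes, lay wholly higher (15.6% of all probe sets). Stat2 (0.86, adjusted p = 0.0715) and Ddx58 (-0.66, adjusted p = 0.0936) came next. Without control array 1 or 2 of 14 months 1 gene was called, and on the values as deposited 0 were.

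In heart at 14 months all 31 tested genes had a positive change on Q10 against control, with a median of 0.83 (-0.02 over all probe sets), but 0 passed the limma test, as did 0 of 27022 probe sets (0.0%). At an unadjusted p under 0.05 stood 23 of the 31 genes (74.2%) and 2620 of all probe sets (9.7%). For 23 of the 31 every Q10 array lay above every control array, which held for 7.36% of all probe sets. The smallest adjusted p were 0.0908 for Gbp2 (1.84 ± 0.34) and 0.0914 for Trim30a (1.01 ± 0.20), Gbp7 (2.05 ± 0.42) and Rsad2 (1.84 ± 0.39). The calls depended on 1 array and on the scaling. Without Q10 array 1 the fit called 11 genes and 558 probe sets, and on the values as deposited it called 17 genes, where all probe sets together shifted by 0.40.

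Iigp1 had 662.2, 1400.5 and 1313.2 on the Q10 arrays of the heart and 255.9, 250.3 and 187.6 on the control arrays. All Q10 arrays were higher, array 1 least so. The change was 2.22 ± 0.52 (adjusted p = 0.108). Igtp had 417.3, 734.0 and 780.0 on the Q10 arrays and 201.8, 196.3 and 195.7 on the control arrays, again without overlap. Trim30a had 113.4, 150.8 and 154.4 against 76.8, 67.0 and 62.2, and Rsad2 505.8, 697.0 and 1240.5 against 323.4, 180.0 and 162.3.

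The QH2 hearts at 14 months were split. Gbp7 had 459.2, 83.0 and 85.6 on the QH2 arrays, 342.8, 573.5 and 594.9 on the Q10 arrays and 132.4, 114.2 and 106.9 on the control arrays. QH2 array 1 thus stood among the Q10 arrays and arrays 2 and 3 below the controls. Iigp1 followed the same order, with 959.2, 127.5 and 154.0 on the QH2 arrays. On QH2 array 1 all 31 genes lay above the control mean, by a median of 0.57, and on arrays 2 and 3 the median was -0.09 and -0.28. QH2 against Q10 gave 0 calls among the 31 genes and 0 among all probe sets (0.0%), with 24 genes (77.4%) and 11.1% of all probe sets at an unadjusted p under 0.05, and 7 genes wholly lower (5.77% of all probe sets). The smallest p belonged to Trim30a (-0.94, adjusted p = 0.0727). Without QH2 array 1 the fit called 19 genes, all lower, and 1179 of 27022 probe sets, and without Q10 array 1 it called 9 genes and 725 probe sets. QH2 against control gave 0 genes and 0 probe sets (0.0%), with 0 genes and 4.73% of all probe sets at an unadjusted p under 0.05. Ifih1 (0.40), Rsad2 (0.56), Gbp2 (0.41) and Ddx60 (0.83) had the smallest p there, all with an adjusted p of 1.0, and without QH2 array 1 the changes of Rsad2 and Gbp2 were -0.005 and -0.139.

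Immune markers were read in heart as well. Macrophage markers were called in 0 of 14 tested, with sums of 4217 to 6223 on the Q10 arrays and 3389 to 4338 on the control arrays. B cell markers were called in 0 of 7, with a median change of 2.74 and sums of 167.5 to 2471 on the Q10 arrays against 122.5 to 134.0 on the control arrays. Neutrophil sums were 62.28, 898.6 and 324.9 on the Q10 arrays against 43.91 to 87.6 on the control arrays, and T cell sums 63.96, 172.8 and 232.5 against 95.04 to 102.5. On Q10 array 1 neither list stood above the controls, while on arrays 2 and 3 both did. On QH2 array 1, where the interferon response genes were high, the B cell sum was 151.0 and the macrophage sum 4423. The part of these cells was not tested. The Actb ratio ran from 1.779 to 2.203 on the Q10 hearts and from 1.809 to 2.184 on the control hearts, and overlapped. On QH2 array 1 it was 2.215, the highest of the hearts, against 1.834 and 1.815 on QH2 arrays 2 and 3.

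At 6 months no heart gene passed: Q10 and QH2 against control gave 0 probe sets of any kind (0.0%), and QH2 against Q10 gave 18 (0.0666%). At an unadjusted p under 0.05 stood 0, 1 and 2 of the 31 genes (0.0%, 3.23% and 6.45%), below the 5.72%, 7.55% and 6.99% of all probe sets. On Q10 the smallest p belonged to Ifit1 (-0.55), Usp18 (-0.45), Eif2ak2 (0.44) and Trim30a (-0.24), and on QH2 to Trim30a (-0.42), Irf9 (-0.35), Rtp4 (-0.31) and Gbp3 (-0.73). On QH2 against Q10 they were Rtp4 (-0.44), Irgm2 (-1.02), Iigp1 (-1.07) and Igtp (-0.66). The difference of the Q10 effect between 14 and 6 months gave 0 genes and 0 probe sets (0.0%), with 15 genes (48.4%) and 6.81% of all probe sets at an unadjusted p under 0.05, led by Trim30a (1.24), Gbp2 (1.72), Rsad2 (1.79) and Gbp3 (2.21), all at adjusted p = 0.627. That of QH2 gave 0 genes by both counts and 0 probe sets (0.0%), with Trim30a (0.49), Ifih1 (0.51), Rtp4 (0.38) and Gbp3 (0.89) first by p. On control diet 0 genes differed between 14 and 6 months, against 543 probe sets (2.01%), and 6 genes (19.4%) had an unadjusted p under 0.05, near the 16.5% of all probe sets. Ifih1 (-0.85, adjusted p = 0.064), Trim30a (-0.63), Irgm1 (-0.74) and Ifit1 (-0.93) had the smallest p. For 11 of the 31 every array of 14 months was below every array of 6 months (11.4% of all probe sets). The direction depended on the scaling: the median over the 31 genes was -0.33 here, -0.07 with median scaling and 0.38 on the values as deposited, where all probe sets shifted by 0.03, 0.22 and 0.68 and the higher share of all calls was 52.5%, 95.7% and 99.7%.

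**Figure D4:**
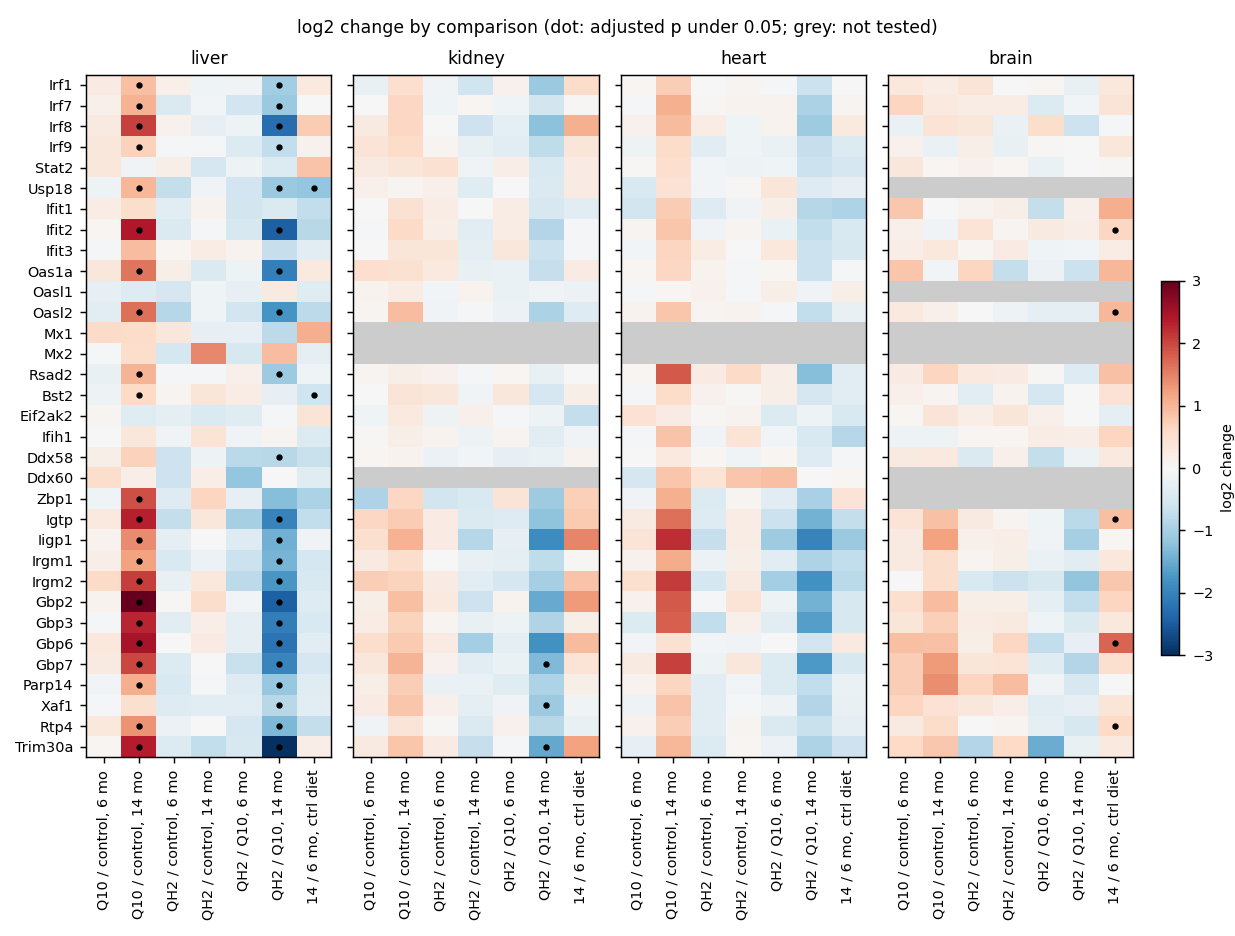
Change of each interferon response gene in 7 comparisons and 4 tissues, as colour on a log2 scale from -3 to 3. Dots mark adjusted p under 0.05 and grey marks genes not tested. Calls stand almost wholly in the 14-month liver columns, with 3 in kidney on QH2 against Q10 and 5 in brain on 14 against 6 months.

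In kidney at 14 months QH2 against Q10 gave 3 lower genes of 30 and 0 higher, against 1635 probe sets (6.05%), 554 of them lower (2.05%). The higher share of these calls was 66.1%, 85.6% with median scaling and 20.4% as deposited. Xaf1 had 79.3, 48.6 and 52.0 on the QH2 arrays and 107.6, 167.4 and 111.6 on the Q10 arrays, 2.14-fold lower (log2 -1.10 ± 0.25, adjusted p = 0.0163). Trim30a had 60.1, 88.1 and 93.1 on the QH2 arrays and 111.4, 489.2 and 221.2 on the Q10 arrays, 2.88-fold lower (adjusted p = 0.0296). In both genes the groups did not overlap, and Q10 array 2 was the highest. The other tested probe set of each was not called, at 0.07 for Xaf1 (adjusted p = 0.942) and -1.29 for Trim30a (adjusted p = 0.0716). The other probe set of Gbp7 was called (-1.14, adjusted p = 0.0379). Gbp7 was 2.52-fold lower (adjusted p = 0.0401), and Ifit2 just missed the threshold (-0.88, adjusted p = 0.0507). All 30 genes had a negative change, with a median of -0.86 and 19 (63.3%) at an unadjusted p under 0.05, against 21.8% of all probe sets, and 6 lay wholly lower (7.23% of all probe sets). The count moved together with that of all probe sets. It was 18 (3082 probe sets) without Q10 array 1, 0 (531) without Q10 array 2, 1 (925) without Q10 array 3, 0 (722) without QH2 array 3, and 0 (338) with Q10 arrays 2 and 3 left out together.

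Q10 against control in kidney gave 0 of 30 genes, against 181 probe sets (0.67%), 29 of them higher, while 3.01% of the calls were higher with median scaling. All 30 changes were positive, with a median of 0.56 and 7 (23.3%) at an unadjusted p under 0.05, against 12.5% of all probe sets. Only Ifit2 and Oasl2 had every Q10 array above every control array, a share near that of all probe sets (5.12%). Oasl2 had 32.8, 89.8 and 74.6 on the Q10 arrays and 31.7, 32.8 and 30.0 on the control arrays (0.92 ± 0.31, adjusted p = 0.196). Xaf1 (0.82, adjusted p = 0.144), Gbp7 (1.01, adjusted p = 0.24) and Parp14 (0.74, adjusted p = 0.349) were the others of smallest p. The 3 Q10 kidneys were unlike: the median over the 30 genes was -0.22, 1.32 and 0.55 above the control mean on arrays 1, 2 and 3. Without array 1 the fit called 7 genes and 1106 probe sets. The Actb ratio ran in the opposite order, at 3.216, 1.639 and 2.37 on Q10 arrays 1, 2 and 3. On QH2 arrays 1, 2 and 3, with medians of 0.07, -0.45 and -0.36, it was 2.047, 3.37 and 2.474, and on the control arrays it ran from 2.1 to 2.476. With this ratio as a covariate Q10 against control gave 2 genes and QH2 against Q10 gave 7. The macrophage sum followed the order of the medians on the Q10 arrays, with 3452, 16230 and 7813. It did so too on the control arrays, with 5193, 2528 and 6370 and medians of 0.17, -0.46 and 0.18. On the QH2 arrays it did not, with 3095, 2495 and 3133, where array 3 had the highest sum and array 1 the highest median. On QH2 against Q10, 4 of 11 tested macrophage markers, 1 of 7 B cell markers and 7 of 41 other interferon targets were lower. The 4 of smallest p among the targets were Ifi35 (-0.79), Ifitm3 (-0.89), Dtx3l (-1.18) and the chemokine Cxcl10 (-2.23). The part of these cells and of RNA quality in the change was not tested.

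The remaining kidney comparisons gave 0 calls among the 30 genes. Over all probe sets there were 0 for Q10 against control at 6 months (0.0%), 52 for QH2 against control (0.192%) and 79 for QH2 against Q10 (0.292%) at that time, and 0 for QH2 against control at 14 months (0.0%). At an unadjusted p under 0.05 stood 1 gene in the first, Oas1a (0.50), and 0 in the other 3, against 4.1% to 10.1% of all probe sets over the 4 comparisons. In the first, Irgm2 (0.74), Irf9 (0.40) and Igtp (0.62) followed. On QH2 against control at 6 months the smallest p were those of Ifit3 (0.35), Oas1a (0.30), Stat2 (0.45) and Ddx58 (-0.18), and on QH2 against Q10 those of Ifit3 (0.34), Ddx58 (-0.25), Irf9 (-0.33) and Irgm2 (-0.50). On QH2 against control at 14 months Trim30a (-0.70), Gbp6 (-1.03), Rtp4 (-0.44) and Irf1 (-0.60) came first. The Q10 effect differed between 14 and 6 months in 2 probe sets (0.0074%), the QH2 effect in 0 (0.0%), and neither in any gene at an unadjusted p under 0.05, against 7.1% and 8.8% of all probe sets. The first by p were Oasl2 (0.84), Ifit2 (0.60), Xaf1 (0.57) and Rtp4 (0.50) for Q10, and Ifit3 (-0.62), Trim30a (-0.95), Oas1a (-0.53) and Gbp6 (-1.26) for QH2. Control kidneys differed between 14 and 6 months in 2528 probe sets (9.36%) but in 0 of the 30 genes, 5 of which (16.7%) had an unadjusted p under 0.05, below the 25.9% of all probe sets. The higher share of those probe sets was 50.6%, 31.5% with median scaling and 99.2% as deposited. Those of smallest p were Eif2ak2 (-0.71, adjusted p = 0.0569), Trim30a (1.21, adjusted p = 0.0595), Iigp1 (1.47) and Gbp2 (1.28). In the same comparison 5 of 7 B cell markers and 4 of 11 macrophage markers were higher.

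In brain no diet comparison called any of the 27 genes. Q10 against control gave 0 probe sets of any kind at 6 months and 0 at 14 months (0.0%). At an unadjusted p under 0.05 stood 3 of the 27 genes (11.1%) at 6 months and 8 (29.6%) at 14 months, against 6.1% and 5.29% of all probe sets, with 25 and 23 positive changes and medians of 0.29 and 0.42. Every Q10 array lay above every control array in 5 genes at 6 months (5.08% of all probe sets) and in 8 at 14 months (4.94%). Gbp7 was in both sets. It had 68.9, 55.4 and 76.9 on Q10 against 48.4, 28.1 and 45.6 on control at 6 months (0.73 ± 0.24, adjusted p = 0.735). At 14 months it had 88.6, 176.3 and 163.0 against 61.8, 58.8 and 47.7 (1.28 ± 0.24, adjusted p = 0.249). Q10 array 1 of 14 months stood nearest the controls, with a median of -0.07 over the 27 genes against 0.67 and 0.55 on arrays 2 and 3, and without it the fit called 3 genes and 17 probe sets. Beside Gbp7, Xaf1 (0.66), Stat2 (0.34) and Irf1 (0.33) had the smallest p at 6 months, and Igtp (0.89), Rtp4 (0.56) and Irgm1 (0.53) at 14 months.

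QH2 against control in brain gave 0 probe sets at 6 months (0.0%) and 3 at 14 months (0.0111%), QH2 against Q10 gave 0 at both times (0.0%), the Q10 effect differed between the times in 0 (0.0%) and the QH2 effect in 8 (0.0296%). None was an interferon response gene, and at an unadjusted p under 0.05 stood 3, 0, 3, 6, 0 and 1 of them in these 6 comparisons (11.1%, 0.0%, 11.1%, 22.2%, 0.0% and 3.7%). Over all probe sets the shares were 8.56%, 4.99%, 7.67%, 4.72%, 4.95% and 6.3%. On QH2 against Q10 at 14 months 6 genes lay wholly lower (5.97% of all probe sets), led by Gbp7 (-0.87, adjusted p = 0.59). Igtp (-0.80), Irgm2 (-1.18) and Irf8 (-0.62) followed. Without Q10 array 1 of 14 months that comparison called 2 genes and 14 probe sets. At 6 months the first by p were Ddx58 (-0.70), Trim30a (-1.49), Irf8 (0.53) and Xaf1 (-0.31). On QH2 against control they were Irf1 (0.39), Ddx58 (-0.43), Ifit2 (0.41) and Trim30a (-0.89) at 6 months. At 14 months they were Gbp7 (0.41), Parp14 (0.92), Irgm2 (-0.64) and Eif2ak2 (0.37), and the change of Parp14 was -0.10 without control array 1. For the change of the effect with time they were Irf8 (0.62), Gbp7 (0.55), Iigp1 (0.94) and Stat2 (-0.28) with Q10, and Trim30a (1.47), Ddx58 (0.58), Oas1a (-1.35) and Irf8 (-0.53) with QH2. The sum of the 6 microglia markers overlapped between the diets at 14 months, with 2016 to 2419 on Q10, 2162 to 2304 on QH2 and 2029 to 2299 on control.

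On control diet 5 of the 27 genes were higher in brain at 14 than at 6 months and 0 lower. That is 18.5% of the genes, and 16.2% of all probe sets were called higher (32.8% in either direction), so that the share lies near the background. The higher share of all calls was 49.5%, 79.7% with median scaling and 81.5% as deposited. Oasl2 had 29.9, 33.5 and 33.8 at 14 months and 20.9, 12.1 and 15.2 at 6 months, a 2.00-fold rise (log2 1.00 ± 0.29, adjusted p = 0.0134). Rtp4 had 70.8, 60.4 and 53.6 at 14 months and 40.6, 42.2 and 37.4 at 6 months, a 1.52-fold rise (adjusted p = 0.0184). The groups of both genes did not overlap. Igtp rose 1.88-fold, Ifit2 1.54-fold and Gbp6, which was dim, 3.35-fold (adjusted p = 0.0206, 0.0218 and 0.0246). The count was 2 without control array 1 or 3 of 14 months or array 2 of 6 months. An unadjusted p under 0.05 was found for 6 of the 27 genes (22.2%) and 43.1% of all probe sets. The Actb ratio did not overlap between the ages, at 1.656 to 1.727 at 14 months and 1.796 to 1.862 at 6 months, and with it as a covariate 2 genes were called. Astrocyte markers were higher in 5 of 5, with sums of 12330 to 13400 at 14 months and 9772 to 10040 at 6 months, and oligodendrocyte markers in 3 of 4, with sums of 13290 to 15460 and 9549 to 12660. Macrophage markers were higher in 4 of 11 and lower in 1, and microglia markers lower in 2 of 6. The neuron markers Syt1 (-0.399), Slc17a7 (-0.949) and Rbfox3 (-0.245) were called lower, and no neuron marker was called higher. The part of RNA quality and of these cells in the rise was not tested.

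Levels across tissues were set on 1 scale by normalising all 72 arrays together, where 31 of the 33 genes were tested. Brain was lower than the mean of the other tissues in 31 of 31 by the test, while 47.4% of all probe sets were lower there. Liver was higher in 28 genes and lower in 1, against 38.6% and 46.1% of all probe sets. Heart was higher in 25 and lower in 0 (41.3% of all probe sets higher), and kidney higher in 14 and lower in 8, against 38.0% and 37.6% of all probe sets. On the values as deposited, where all brain probe sets shifted by 0.82 and all liver ones by -0.98, brain was lower in 28 and higher in 1, and liver higher in 18 and lower in 6. Heart was then higher in 16 and lower in 2, with all its probe sets shifted by -0.26, and kidney higher in 15 and lower in 6, with a shift of 0.2.

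By the median of 18 arrays the highest tissue was liver for 21 of the 31 genes, heart for 7 (Gbp2, Gbp6, Ifit2, Oasl2, Rsad2, Trim30a and Xaf1) and kidney for 3 (Gbp3, Ifit3 and Irf8). Iigp1 had a median of 2517.4 (1705.9 to 7372.1) in liver, 444.4 (147.7 to 1471.0) in heart, 170.9 (79.1 to 1949.6) in kidney, and ran from 9.8 to 67.9 in brain. Liver lay above heart and brain on every array, the highest kidney array reached into the liver range, and heart and kidney overlapped. Bst2 had 575.4 (365.6 to 711.7) in liver, 122.8 (90.3 to 166.0) in heart, 67.8 (43.7 to 210.5) in kidney and 19.4 (2.9 to 29.0) in brain, with liver apart from all others. Ifit2 was the gene lower in liver, at 29.5 (10.6 to 155.8). It stood at 125.9 (76.5 to 188.4) in heart, 76.8 (41.8 to 111.6) in kidney and 38.1 (22.9 to 48.9) in brain. Its liver range overlapped that of each other tissue. Gbp6 stood at 506.1 (321.7 to 1020.5) in heart and 160.5 (103.7 to 826.6) in liver, so that the liver arrays reached into the range of the heart.

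**Figure D5:**
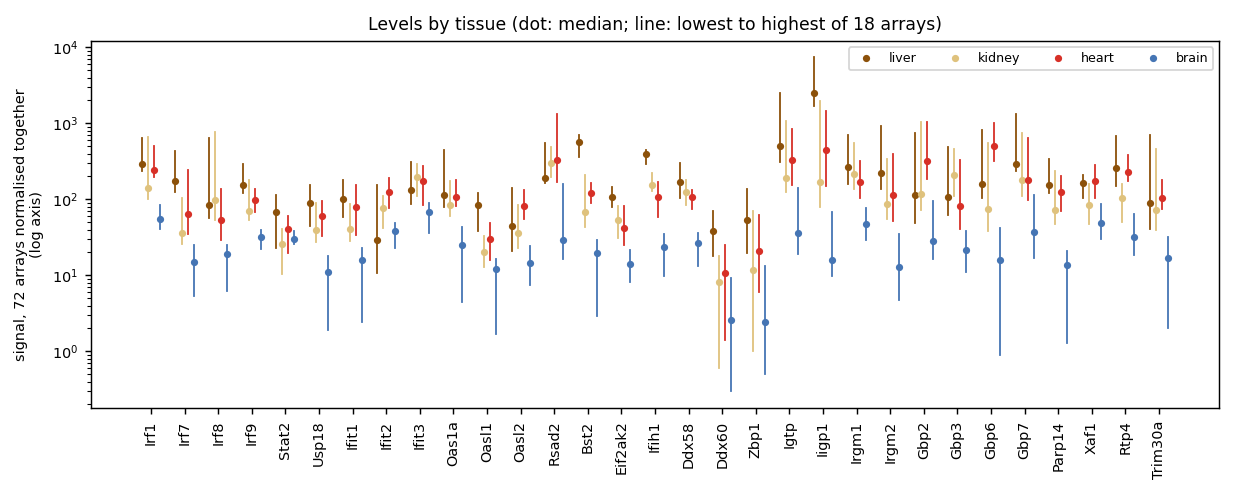
Level of 31 interferon response genes in liver, kidney, heart and brain, with all 72 arrays normalised together. Dots are medians and lines the lowest to highest of 18 arrays on a log axis, and brain has the lowest median except for Ifit2, lowest in liver, and Stat2, lowest in kidney.

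Several probe sets could be compared for 14 genes in liver on Q10 against control at 14 months. All probe sets of a gene were called for 5 (Gbp2, Gbp6, Gbp7, Iigp1 and Irf8), some for 4 (Rsad2, Rtp4, Trim30a and Zbp1) and none for 5 (Ddx58, Ddx60, Eif2ak2, Stat2 and Xaf1). They disagreed in sign for Eif2ak2 (-0.37 to 0.66), Stat2 (-0.10 to 0.22) and Xaf1 (-0.14 to 0.49). In heart and kidney the all-positive changes on Q10 at 14 months hold for the brightest probe set of each gene. Dimmer ones were negative in heart for Xaf1 (-0.415) and Eif2ak2 (-0.381 and -0.015). In kidney they were negative for Xaf1 (-0.461) and Rsad2 (-0.04). None of these was called. Members of the guanylate-binding protein, IRG and OAS families are similar in sequence, and whether a probe set also read a relative was not tested.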

How the data were processed

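Total RNA of 72 tissue samples was hybridised to Affymetrix mouse arrays, 3 per group. The deposited intensity values, 1 signal per probe set, were made by the authors with GCOS, per the submitters' processing notes. The version of GCOS is not given in the sources used here. In all, 45101 probe sets and 102 exact zeros were deposited. Scaling differed between arrays, so the 18 arrays of a tissue were quantile normalised here, 64 control probe sets were then left out, 1 was added and log2 taken. Probe sets with a mean above the 40th percentile were tested. Symbols came from the platform annotation, updated through Entrez numbers, and a gene was read from its brightest tested probe set with 1 symbol (34945 probe sets have 1, 932 several and 9160 none).

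Each tissue was fitted with limma 3.58.1 (R 4.3.3), with 1 mean for each of 6 groups and an intensity trend. There were 9 comparisons per tissue, 36 in all, with Benjamini-Hochberg adjustment over all probe sets of a comparison and a threshold of 0.05. Every adjusted p in the text is from limma. The fit was tested on simulated data with independent noise and the same spread in every group. That cannot show how it behaves where groups differ in spread or genes move together. The members, the gene lists and the marker lists were chosen with earlier results of these data known. Each member was named by its role class, and in each comparison all called members or, where fewer than 4 were called, the 4 of smallest p. In liver on Q10 against control at 14 months, up to 4 called genes of smallest p were named from each other pathway list. In kidney on QH2 against Q10 at 14 months this was done for the other interferon targets alone. Further called genes of these lists, in these and other comparisons, are not named. Values on every array were given for up to 3 called members of each role class in liver on Q10 at 14 months, for the first called ones of other comparisons, and for further members chosen after their values were seen. Within a tissue, same-numbered arrays of different groups did not deviate together, so numbers were not used to pair. The median correlation of their deviations was between -0.007 in heart and 0.005 in brain. These arrays are from different mice, so whether a number marks 1 mouse across tissues was not tested. Among Q10 arrays of 14 months, array 1 had the lowest median of interferon response genes everywhere (brain -0.074, heart 0.503, kidney -0.224, liver 0.893). QH2 array 1 of 14 months was lowest in brain and liver but highest in heart and kidney. The tissues therefore cannot be counted as separate mice. Alternatives were the values as deposited, median scaling, no filter, an offset of 16, no trend, the Actb ratio as a covariate, the replicate block, only the groups compared, leaving out each array, and, added later, leaving out Q10 arrays 2 and 3 of 14 months. The number of arrays, 3 per group, limits the precision. Sequences are RefSeq's.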

Additional observations from a re-analysis of the deposited data

Results flagged for a closer look

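The Q10 effect differed between 14 and 6 months in liver in 9 interferon response genes by the test of the difference itself, against 629 of 27022 probe sets (2.33%). Leaving out 1 array gave 0 to 17 such genes, and 0 of the 9 stayed called in every such fit. The difference was 1.74 for Gbp7, 2.86 for Gbp2, 1.31 for Iigp1, 2.32 for Gbp3, 2.05 for Igtp, 2.14 for Gbp6, 1.96 for Oasl2, 2.28 for Trim30a and 2.36 for Ifit2.

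On QH2 against control at 6 months the median over the genes moved one way on all 3 arrays of one tissue and the other way on all 3 of another: the mean of the per-array medians was -0.272 in liver and 0.219 in brain. On control diet, 14 against 6 months, it was -0.337 in liver and -0.388 in heart and 0.461 in brain. The sign in heart depended on the scaling. On the values as deposited the median change over the genes was -0.14 in liver, 0.38 in heart and 0.57 in brain. All probe sets shifted by 0.17, 0.68 and 0.33 there. These contrasts between tissues were not tested.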

How the results depend on the processing

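Counts of called genes were recomputed for 36 comparisons and 4 tissue contrasts. They stayed within 1.5 times the reported count in 31 of 40 on the values as deposited, 33 of 36 with median scaling, 36 of 36 without the filter on dim probe sets, 36 of 36 with offset 16, 33 of 36 without the intensity trend, 29 of 36 with the Actb ratio, 35 of 36 with the replicate block, 28 of 36 with only the groups compared, 8 of 12 without Q10 arrays 2 and 3, and 4 of 4 on control diet alone. Most of the 36 comparisons had 0 calls as reported, and 0 against 0 counts as within, so these shares say little about the calls. Among comparisons with a call, only liver at 14 against 6 months stayed within 1.5 times with the Actb ratio. With only the groups compared, only brain at 14 against 6 months did. The cause of the changes was not tested in any. On Q10 against control at 14 months in liver (22) the count was 14 as deposited, 0 with the Actb ratio, 0 with only the groups compared, 2 without Q10 arrays 2 and 3, and 12 to 24 leaving out 1 array. On QH2 against Q10 (22) it was 0 with the Actb ratio, 0 with only the groups compared, 2 without Q10 arrays 2 and 3, and 18 to 22 leaving out 1 array. For the Q10 effect, 14 minus 6 months (9), it was 0 as deposited, 1 without the trend, 0 with the Actb ratio, 4 with only the groups compared, 1 without Q10 arrays 2 and 3, and 0 to 17 leaving out 1 array. On 14 against 6 months in liver (2) it was 0 as deposited, 1 with median scaling, 1 without the trend, 4 with only the groups compared, and 1 to 2 leaving out 1 array. The replicate block gave 23 against 22 on Q10 against control at 14 months in liver. In kidney, Q10 against control at 14 months (0) gave 2 with the Actb ratio and 0 to 7 leaving out 1 array. QH2 against Q10 (3) gave 0 as deposited, 1 without the trend, 7 with the Actb ratio, 0 with only the groups compared, 0 without Q10 arrays 2 and 3, and 0 to 18 leaving out 1 array. Kidney at 14 against 6 months (0) gave 4, 2, 1 and 1 as deposited, with median scaling, with the Actb ratio and with only the groups compared, and 0 to 1 leaving out 1 array. In heart, Q10 against control at 14 months (0) gave 17 as deposited, 4 with only the groups compared and 0 to 11 leaving out 1 array. QH2 against Q10 (0) gave 6 as deposited and 0 to 19, and the Q10 effect, 14 minus 6 months (0), 0 to 1. Heart at 14 against 6 months (0) gave 4 higher as deposited, 1 lower with the replicate block and 3 lower with only the groups compared. The replicate block changed no other call by over 1.5 times. In brain, leaving out 1 array gave 0 to 3 for Q10 against control (0) and 0 to 2 for QH2 against Q10 (0) at 14 months. Brain at 14 against 6 months (5) gave 8 as deposited, 9 with median scaling, 2 with the Actb ratio and 2 to 5 leaving out 1 array. Of named changes that never passed, 16 turned sign. Without Q10 arrays 2 and 3 these were Parp14 (-0.214) in kidney on Q10 at 14 months, Oasl2 (-0.026) and Rtp4 (-0.081) in the kidney Q10 difference, Igtp in brain on Q10 (-0.115) and on QH2 against Q10 (0.202), and Gbp7 (-0.074) and Iigp1 (-0.846) in the brain Q10 difference. As deposited they were Trim30a (0.10) in heart with age, and Stat2 (-0.001) and Irf1 (-0.017) in brain on Q10 at 6 months. Leaving out 1 array, Stat2 ran from -0.002 to 0.741 and Ddx58 from -0.278 to 0.014 in kidney on QH2 at 6 months, Eif2ak2 from -0.067 to 0.826 in heart on Q10 at 6 months, Rsad2 from -0.005 to 1.106 and Gbp2 from -0.139 to 0.783 in heart on QH2 at 14 months, and Parp14 from -0.099 to 1.467 in brain on QH2 at 14 months. Dim genes such as Mx1, Mx2 and Ddx60 have wide intervals.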
